A study of Homo sapiens with 36 samples.

Results

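The MYC, MXI1 and TXNIP network consists of 10 genes, MYC, MAX, MXI1, MXD1, MXD3, MXD4, MNT, MLXIPL, TXNIP and ARRDC4, which were taken by symbol from the 60591 genes of the mRNA count table. All 10 passed the filter on low counts used here in both cell lines, while the authors' own filter left MLXIPL at 0 in HT-29. mRNA was sequenced in 18 libraries from Caco-2 and HT-29, which are human colorectal cancer cell lines, with 3 biological replicates in each of 6 groups. Caco-2 was differentiated for 21 days, which gives a layer with features of small intestinal enterocytes, and HT-29 was grown without that step, so line and culture state cannot be told apart. Cells were exposed for 24 h to 300 µM CoCl2 or to 5 µM of an oxyquinoline derivative (OD), and control cells received neither. Both agents block prolyl hydroxylases, so that hypoxia-inducible factor (HIF) is no longer degraded at normal oxygen. By the sample labels, control and OD medium held dimethyl sulfoxide, at 0.5 µl in each ml, and CoCl2 was dissolved in water. The methods of the study, which describe Caco-2 alone, state that the CoCl2 medium also held dimethyl sulfoxide and give another concentration of it, so an effect of the solvent cannot be told apart from that of CoCl2. OD is known here by a catalogue code, and no structure is given for it.

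MYC is a transcription factor that pairs with MAX, and the pair activates genes of ribosome production, nucleotide synthesis and growth at the E-box, a short DNA motif. MXI1, MXD1, MXD3, MXD4 and MNT also pair with MAX at E-boxes, but they bring the SIN3 corepressor and silence genes. MLXIPL, also called ChREBP, and its relative MLXIP, also called MondoA, pair with MLX, respond to glucose metabolites, and activate TXNIP and ARRDC4. TXNIP binds thioredoxin and lowers glucose uptake, and ARRDC4 is a related alpha-arrestin. MXI1 is a known HIF target.

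Promoter sequence was available for 9 of the 10 genes, all but MYC, which was not searched. These gave 13 windows from RefSeq on GRCh38, each running from 250 bases before a transcription start to 50 bases after it. Of all 35116 windows, 7.26% held the E-box CACGTG on either strand, and among the network genes MXD4, MNT and ARRDC4 held it. The shorter HIF core ACGTG, which every CACGTG contains, was in 21.4% of windows. The paired motif CACGNG, 5 bases, CACGNG, in the form of the carbohydrate response element that MLX partners bind, was in 20 windows or 0.057%, among them the main TXNIP window. This motif was searched after the sequences had been seen. Shown are the 250 bases before the start of TXNIP (chr1:145996580-145996829, minus strand), of ARRDC4 (chr15:97960453-97960702, plus strand) and of the second of 3 MXI1 starts (chr10:110209981-110210230, plus strand), because TXNIP and ARRDC4 share their known activators and MXI1 is the HIF target among the genes. The MXI1 start was picked because its window alone of the 3 held ACGTG. The related motif GCGTG was also searched and was in 36.5% of all windows. It occurred 1 time in the MXI1 window shown and 2 times in the third MXI1 window. GCGTG was also found 4 times in the ARRDC4 window, 2 times in the main TXNIP window and 2 times in the MXD3 window. It is not marked in the sequences. ACGTG was also in windows of MAX, MXD4, MNT, TXNIP (the second window) and ARRDC4. None of the bases shown lies in a GENCODE exon, and the MXI1 stretch lies in an intron of the longer transcripts. Capitals mark the paired CACGNG motif in TXNIP, 88 bases before the start, the E-box in ARRDC4, 210 bases before the start, and CACGT, the reverse complement of ACGTG, in MXI1, 113 bases before the start.
TXNIP: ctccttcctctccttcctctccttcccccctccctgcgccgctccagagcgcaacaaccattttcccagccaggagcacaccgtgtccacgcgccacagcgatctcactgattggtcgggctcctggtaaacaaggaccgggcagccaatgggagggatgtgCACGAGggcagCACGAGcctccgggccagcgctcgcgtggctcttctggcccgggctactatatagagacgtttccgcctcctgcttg
ARRDC4: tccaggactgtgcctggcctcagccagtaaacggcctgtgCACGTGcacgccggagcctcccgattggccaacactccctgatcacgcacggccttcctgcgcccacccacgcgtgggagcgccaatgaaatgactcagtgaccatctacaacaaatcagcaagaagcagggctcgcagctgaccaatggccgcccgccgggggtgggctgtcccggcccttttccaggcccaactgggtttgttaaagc
MXI1: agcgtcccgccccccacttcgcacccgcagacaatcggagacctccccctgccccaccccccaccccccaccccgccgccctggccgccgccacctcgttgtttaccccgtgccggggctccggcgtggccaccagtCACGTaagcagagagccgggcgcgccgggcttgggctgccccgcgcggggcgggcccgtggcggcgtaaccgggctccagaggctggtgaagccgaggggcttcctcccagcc
A match is a description of the letters and not evidence of binding.

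Total counts ran from 12925719 to 22332639 per library. Levels are given as normalised read counts (CPM, each count as a share of its library, with libraries of a line scaled by TMM, the trimmed mean of M values), and also per gene length (RPKM) where genes are set against each other. Differences are log2 fold changes from edgeR's quasi-likelihood test with their standard error (SE) and the Benjamini-Hochberg adjusted p (FDR), and a gene was called at an FDR under 0.05 with an absolute log2 fold change over 1. Scaling by library size alone moved the median of all genes in Caco-2 by -0.32 (CoCl2) and -0.15 (OD), and that of HT-29 by -0.63 and -0.14, so fold changes below are relative to the bulk of genes. The 7 intestinal epithelial markers summed to 4640 to 4800 CPM in Caco-2 control, 7193 to 7971 with CoCl2 and 6144 to 6541 with OD. Their HT-29 sums were 5111 to 5143, 6582 to 6939 and 6457 to 7063 CPM. Single markers did not all follow these sums. In HT-29 1 was called higher and 2 lower with CoCl2, where 17.4% and 23.9% of all genes were. With OD 1 was called each way there, where 9.50% were called higher and 7.57% lower. In control HT-29 against control Caco-2, 3 were called higher and 3 lower, where 21.6% and 24.2% of all genes were. All 5 enterocyte markers were lower in control HT-29 than in control Caco-2. In Caco-2 the summed enterocyte markers were 302 to 382 CPM in control, 196 to 229.6 with CoCl2 and 258 to 342 with OD, although APOA4 of that list was called higher with both agents. In HT-29 they summed to 15.8 to 16.2, 8.95 to 9.74 and 8.06 to 9.30 CPM. The 6 markers of leukocytes, fibroblasts and endothelium summed in Caco-2 to 32.7 to 39.8 CPM in control, 19.0 to 22.2 with CoCl2 and 22.3 to 27.7 with OD. In HT-29 those 6 markers summed to 2.66 to 3.74 CPM in control, 2.39 to 3.38 with CoCl2 and 6.15 to 7.17 with OD. Of them COL1A1 held 202 to 405 counts per Caco-2 library and 23 to 116 per HT-29 library. PECAM1 held 28 to 172 and 3 to 35, while PTPRC and CDH5 held at most 3 counts per library. The part of these marker shifts in the results was not tested.

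MYC moved in opposite directions in the lines, rising with CoCl2 in Caco-2 and falling with both agents in HT-29. In Caco-2 the MYC level was 44.3, 40.2 and 48.6 CPM in the control libraries, 111, 94.6 and 107 CPM with CoCl2, and 58.6, 51.4 and 51.4 CPM with OD. All CoCl2 libraries lay above all others, and the OD libraries lay just above the controls without overlap. The CoCl2 change was 2.35-fold (log2 1.23, SE 0.09, FDR 1.7e-11). With OD the change was 1.21-fold (log2 0.28, SE 0.09, FDR 0.0137), short of the fold threshold. Among the alternative settings that OD value was as low as 0.12, and it did not keep an FDR under 0.05 in all of them. By library size alone the CoCl2 value was 0.91, and MYC was then not called. In bulk RNA, fewer cells of a kind and less RNA per cell cannot be told apart, here and in every result that follows.

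In HT-29 the MYC level was 156, 163 and 168 CPM in control, 46.4, 43.0 and 43.7 CPM with CoCl2, and 73.1, 78.0 and 72.6 CPM with OD. The groups were fully separate, with control highest and CoCl2 lowest. MYC fell to 0.273 of control with CoCl2 (log2 -1.87, SE 0.05, FDR 1.74e-21) and to 0.459 with OD (log2 -1.12, SE 0.05, FDR 1.02e-16). The lines differed in the CoCl2 response by -3.21 on the log2 scale (SE 0.11, FDR 2.29e-22) and in the OD response by -1.42 (SE 0.11, FDR 5.74e-13), each as the HT-29 change less the Caco-2 change. Control HT-29 held 3.89 times the MYC level of control Caco-2 in a fit over all 18 libraries. The antisense gene CASC11 overlaps MYC on chromosome 8 and held 1 to 17 counts per HT-29 library, against 532 to 4471 for MYC.

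MAX, the shared partner, was higher with both agents in both lines. The Caco-2 levels were 47.6, 44.2 and 46.7 CPM in control, 85.6, 78.6 and 78.7 CPM with CoCl2, and 67.6, 72.9 and 61.7 CPM with OD. In HT-29 they were 25.5, 27.6 and 27.4 CPM, then 61.7, 64.4 and 59.5 CPM, then 46.7, 48.9 and 49.8 CPM. In each line all treated libraries were above all controls, and the CoCl2 libraries were above the OD libraries. The Caco-2 log2 changes were 0.81 (CoCl2) and 0.55 (OD), and those of HT-29 were 1.20 and 0.85, with an FDR of at most 7.11e-06. Only the CoCl2 change in HT-29 passed the fold limit, and it was 0.57 by library size alone and 0.96 by limma-trend, a test on the authors' log2 values, and was called by neither. MAX (chr14:65006174-65102695, minus strand) lies over FNTB on the opposite strand, which held 55 to 244 counts per library.

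**Figure D1:**
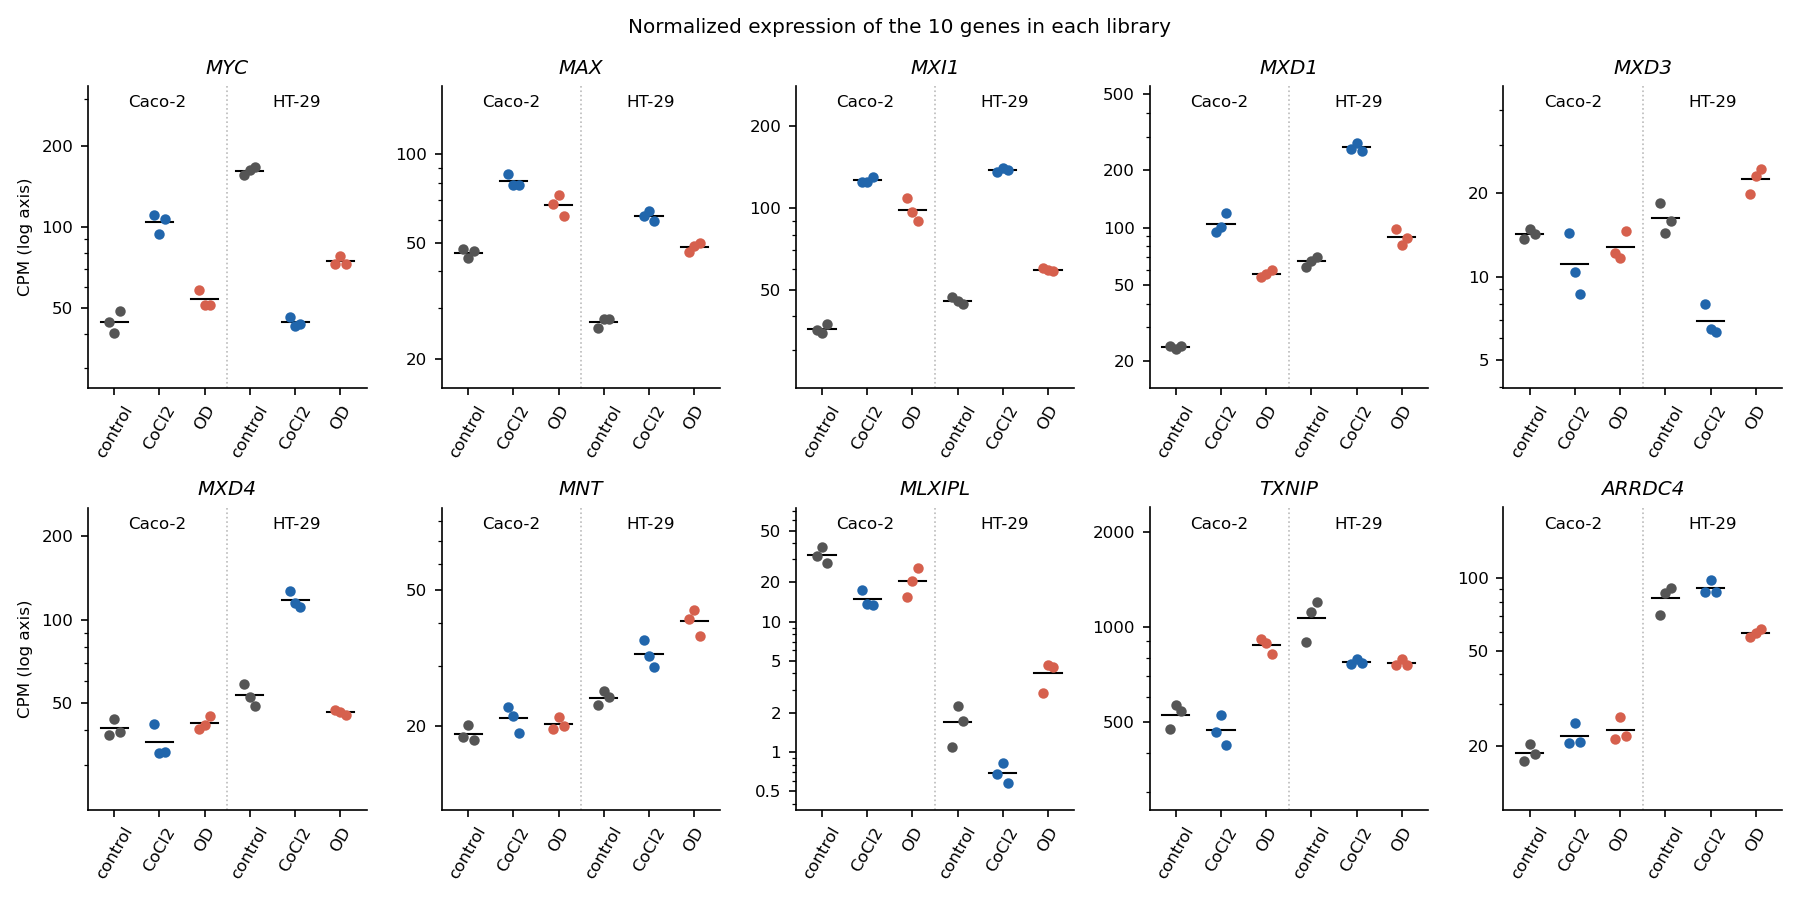
CPM of each of the 10 genes in each library on log axes, with a point per library, a bar at the mean of 3 replicates, Caco-2 on the left and HT-29 on the right of each panel. MYC libraries sit at 94.6 to 111 CPM with CoCl2 in Caco-2 and at 43.0 to 46.4 CPM with CoCl2 in HT-29, on opposite sides of their controls.

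Of the MAX-paired repressors, MXI1 and MXD1 were higher with both agents in both lines, with the OD changes in HT-29 short of the fold limit. MXI1 (chr10:110207605-110287365, plus strand) stood at 35.5, 34.9 and 37.7 CPM in Caco-2 control, 125, 125 and 130.0 CPM with CoCl2, and 109, 96.9 and 89.6 CPM with OD. In HT-29 its levels were 47.2, 45.7 and 44.3 CPM in control, 135, 141 and 138 CPM with CoCl2, and 60.5, 59.2 and 58.8 CPM with OD. No groups overlapped within a line, but OD lay near CoCl2 in Caco-2 and near control in HT-29. The CoCl2 changes were 3.51-fold in Caco-2 (log2 1.81, SE 0.08, FDR 3.02e-15) and 3.02-fold in HT-29 (log2 1.60, SE 0.05, FDR 6.03e-21), the latter 0.96 on the log2 scale by library size alone. The OD changes were 2.73-fold (log2 1.45, SE 0.08, FDR 6.97e-13) and 1.30-fold (log2 0.38, SE 0.05, FDR 2.05e-07). The OD response was smaller in HT-29 by 1.09 on the log2 scale (estimate -1.09, SE 0.10, FDR 3.43e-11), while the CoCl2 responses differed by -0.33 (SE 0.10, FDR 0.00466). That CoCl2 difference stood beside a median of -0.13 over all genes, and its FDR was not under 0.05 in every alternative setting. An antisense lncRNA and a processed pseudogene overlap MXI1, and whether counting used strand was not stated.

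MXD1 (chr2:69897688-69942945, plus strand), a repressor linked to exit from the cell cycle, showed the largest rise of the 10 genes with CoCl2 in each line. Caco-2 libraries gave 24.0, 23.0 and 23.9 CPM in control, 94.8, 100.3 and 119 CPM with CoCl2, and 54.9, 57.4 and 59.7 CPM with OD. HT-29 libraries gave 62.5, 67.0 and 70.4 CPM, then 259.5, 277 and 254 CPM, then 98.2, 81.2 and 88.0 CPM. CoCl2 libraries were highest and control libraries lowest in both lines, without overlap. The CoCl2 changes were 4.43-fold (log2 2.15, SE 0.09, FDR 7.1e-16) and 3.94-fold (log2 1.98, SE 0.06, FDR 7.21e-21). With OD they were 2.42-fold (log2 1.28, SE 0.09, FDR 5.14e-11) and 1.33-fold (log2 0.42, SE 0.06, FDR 1.49e-06), a line difference of -0.88 (SE 0.12, FDR 1.51e-07), which passed the fold limit, at -1.05, without replicate 1. SNRNP27 overlaps MXD1 on the same strand, and its log2 values for CoCl2 and OD were 0.64 and 0.41 (Caco-2) and 0.78 and -0.04 (HT-29).

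With CoCl2 in HT-29, MXD4 rose and MXD3 fell. MXD4 (chr4:2247432-2262109, minus strand) was at 58.8, 52.5 and 48.9 CPM in HT-29 control, 127, 115 and 111 CPM with CoCl2, and 47.4, 46.7 and 45.4 CPM with OD. Only the CoCl2 libraries stood clear, and OD lay just under control. The CoCl2 change was 2.22-fold (log2 1.15, SE 0.06, FDR 9.35e-16), and was not called by library size alone (log2 0.52) or by limma-trend (log2 0.97). In Caco-2 the levels were 38.5, 43.8 and 39.3 CPM in control, 42.1, 33.0 and 33.3 CPM with CoCl2, and 40.3, 41.8 and 45.1 CPM with OD, groups that overlapped. Its log2 values in Caco-2 were -0.17 for CoCl2 (FDR 0.136) and 0.06 for OD (FDR 0.612), the latter -0.089 by library size alone. The line difference in the CoCl2 response was 1.21 (SE 0.12, FDR 1.62e-10).

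MXD3 (chr5:177301461-177312757, minus strand), the MXD protein linked to dividing cells, was at 18.4, 14.4 and 15.9 CPM in HT-29 control, 7.98, 6.49 and 6.33 CPM with CoCl2, and 19.9, 23.2 and 24.4 CPM with OD. CoCl2 was below and OD above control, without overlap. The log2 changes were -1.22 (SE 0.12, FDR 4.68e-10) and 0.48 (SE 0.09, FDR 6.2e-05), and the first was -0.88, short of the fold limit, by limma-trend. Caco-2 libraries held 13.6, 14.9 and 14.2 CPM in control, 14.4, 10.4 and 8.64 CPM with CoCl2, and 12.2, 11.7 and 14.7 CPM with OD, and these ranges overlapped. Its Caco-2 log2 values were -0.38 with CoCl2 (FDR 0.0346) and -0.16 with OD (FDR 0.399). The first did not keep an FDR under 0.05 in every alternative setting. The line difference in the CoCl2 response was -0.95 (SE 0.20, FDR 0.000205), past the fold limit without replicate 2 (-1.05) or without replicate 3 (-1.08) and by library size alone (-1.15). RAB24 on the same strand and PRELID1 on the other overlap MXD3, with 29 to 72 and 292 to 852 counts per library, against 77 to 460 for MXD3.

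MNT (chr17:2384073-2401104, minus strand), a repressor found in most tissues, was not called in any comparison. Its Caco-2 levels ran from 18.1 to 20.1 CPM in control, 19.1 to 22.6 CPM with CoCl2 and 19.5 to 21.2 CPM with OD, all overlapping. The HT-29 levels were 23.0, 25.3 and 24.3 CPM in control, 35.8, 32.0 and 29.8 CPM with CoCl2, and 41.2, 43.9 and 36.8 CPM with OD. In HT-29 the treated groups lay above control and did not overlap each other. Log2 changes were 0.43 with CoCl2 (FDR 1.43e-05), which turned to -0.21 by library size alone, and 0.74 with OD (FDR 8.01e-10). The Caco-2 values, 0.14 (FDR 0.247) and 0.10 (FDR 0.465), also turned negative by library size alone, at -0.18 and -0.055.

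Among the glucose-sensing genes, MLXIPL (chr7:73593194-73624543, minus strand) was mainly a Caco-2 transcript. Its Caco-2 levels were 31.8, 37.5 and 28.1 CPM in control, 17.6, 13.7 and 13.3 CPM with CoCl2, and 15.4, 20.6 and 25.6 CPM with OD. Both treated groups lay under control, and they overlapped each other. The log2 changes were -1.14 with CoCl2 (SE 0.15, FDR 3.88e-07) and -0.66 with OD (SE 0.14, FDR 0.000485), and the CoCl2 value fell short of the fold limit without replicate 2 (-0.97) and by limma-trend (-0.95). MLXIPL counts in HT-29 were few, from 17 to 46 in control libraries, 7 to 12 in CoCl2 libraries and 55 to 85 in OD libraries. These small counts gave log2 changes of -1.29 (SE 0.34, FDR 0.00116) and 1.21 (SE 0.22, FDR 1.92e-05). The OD responses thus pointed opposite ways, with a line difference of 1.85 (SE 0.29, FDR 2.22e-06), and control HT-29 stood at 0.0565 of control Caco-2.

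TXNIP (chr1:145992435-145996579, minus strand) was by far the most abundant of the 10 transcripts per length, with a mean RPKM rank of 158 among 13153 genes kept in Caco-2 and 110 among 12431 in HT-29. Its Caco-2 levels were 475, 566 and 542 CPM in control, 465, 524 and 422 CPM with CoCl2, and 918, 892 and 819 CPM with OD. All OD libraries lay above the rest, while CoCl2 overlapped control. The OD change was 1.66-fold (log2 0.73, SE 0.08, FDR 1.3e-07), and the CoCl2 change was -0.17 (SE 0.08, FDR 0.0875). The agents differed directly by -0.90 (CoCl2 less OD, SE 0.08, FDR 5.2e-09), which became -1.06 by library size alone.

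In HT-29 TXNIP was at 896, 1115 and 1196 CPM in control, 764, 791 and 767 CPM with CoCl2, and 756, 789 and 757 CPM with OD. The treated groups overlapped each other, and both lay under all controls. The log2 changes were -0.47 with CoCl2 (SE 0.06, FDR 2.04e-07), or -1.10 by library size alone, and -0.48 with OD (SE 0.06, FDR 2.32e-07). The agents differed by 0.01 (95% interval -0.12 to 0.14), a value that was negative, at -0.49, by library size alone. The line difference in the OD response was -1.23 (SE 0.12, FDR 1.73e-10), and in the CoCl2 response it was -0.41 (SE 0.12, FDR 0.00402). The median of all genes for that CoCl2 difference was -0.13, and the TXNIP value did not keep an FDR under 0.05 in every alternative setting. Control HT-29 held 2.16 times the level of control Caco-2.

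ARRDC4 (chr15:97960703-97973833, plus strand), which like TXNIP overlaps no other annotated gene, was not called with either agent. In Caco-2 it was at 17.4, 20.5 and 18.5 CPM in control, 20.5, 25.1 and 20.8 CPM with CoCl2, and 21.4, 26.4 and 22.0 CPM with OD. The OD libraries lay above the controls by a small margin. In HT-29 it was at 70.4, 86.8 and 91.4 CPM, then 87.7, 98.6 and 87.7 CPM, then 56.8, 59.1 and 61.3 CPM, so that OD lay below both other groups. The log2 changes with OD were 0.31 in Caco-2 (FDR 0.0295) and -0.50 in HT-29 (FDR 5.4e-07), a line difference of -0.82 (SE 0.14, FDR 8.17e-06). Those with CoCl2 were 0.24 (FDR 0.0828) and 0.13 (FDR 0.0778), and both turned negative by library size alone, at -0.085 and -0.50. The OD value in Caco-2 did not keep an FDR under 0.05 in every alternative setting. Control HT-29 held 4.71 times the level of control Caco-2 (FDR 1.29e-20).

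**Figure D2:**
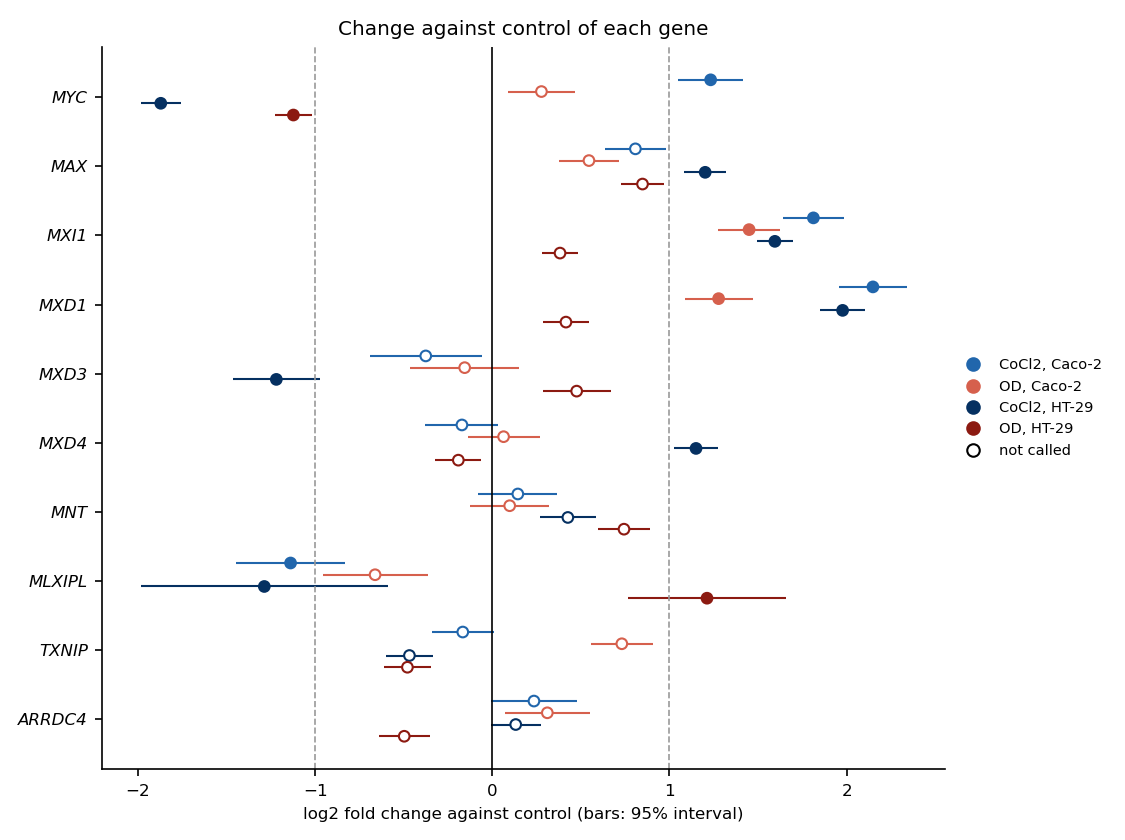
Log2 fold change of each gene against control on the x axis, with 95% intervals as bars, for both agents in both lines, where filled points were called, open points were not, and dashed lines mark the fold limit of 1. MXI1 and MXD1 lie right of the limit with CoCl2 in both lines, while MYC lies at 1.23 in Caco-2 and at -1.87 in HT-29, and by library size alone the values of MNT with CoCl2, of ARRDC4 with CoCl2 and, in Caco-2, of MNT and MXD4 with OD change sign.

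Counted together, 4 of the 10 genes were called with CoCl2 in Caco-2, where 23.4% of 16034 genes tested were called. MYC, MXI1 and MXD1 were the 3 called higher, against a background of 9.13%, and MLXIPL the 1 called lower, against 14.2%. OD in Caco-2 gave MXI1 and MXD1, 2 genes and both higher, where 11.7% of all genes were called, 4.43% higher and 7.27% lower. In HT-29 CoCl2 gave 7 called genes, where 41.3% of 15812 genes were called, with MAX, MXI1, MXD1 and MXD4 higher (background 17.4%) and MYC, MXD3 and MLXIPL lower (23.9%). OD in HT-29 gave 2 called genes, MLXIPL higher and MYC lower, where 17.1% of all genes were called, 9.50% higher and 7.57% lower. At the FDR alone, by edgeR's test, the counts were 6 (CoCl2) and 7 (OD) in Caco-2, where 64.7% and 50.4% of all genes passed. In HT-29 they were 9 and 10, where 82.8% and 68.8% passed. Within a line, CoCl2 and OD were set against the same control libraries.

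The agents were also compared directly. CoCl2 against OD gave no called gene of the 10 in Caco-2, where 11.7% of all genes were called, 5.21% higher and 6.44% lower. At the FDR alone 6 passed in edgeR's test, as did 49.6% of all genes, while DESeq2 and limma-trend called 0 and library size alone called 1, TXNIP. MYC was higher with CoCl2 than with OD in Caco-2 by 0.96 (FDR 3.86e-09) and MXD1 by 0.87 (FDR 1.07e-08). For the same comparison in HT-29, 5 genes were called, where 29.9% of all genes were, 10.8% higher and 19.2% lower, and 9 passed the FDR alone, as did 77.7% of all genes. MXI1 (1.21), MXD1 (1.56) and MXD4 (1.34) were higher with CoCl2 than with OD, and MXD3 (-1.70) and MLXIPL (-2.50) were lower. MYC was lower with CoCl2 in HT-29 by 0.75 (estimate -0.75, FDR 2.88e-12), or -1.25 by library size alone. Doses were 300 µM and 5 µM, so these values compare the treatments as applied.

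The differences in response between the lines were called for 2 genes with CoCl2, MYC and MXD4, where 21.6% of 17921 genes were called, 7.79% higher and 13.8% lower. With OD they were called for 4 genes, MYC, MXI1 and TXNIP lower and MLXIPL higher, where 15.2% of genes were called, 6.24% lower and 8.96% higher. At the FDR alone 7 and 9 genes passed with CoCl2 and OD, where 49.8% and 42.9% of all genes did. The median line difference of all genes was -0.13 with CoCl2 and 0.01 with OD. Between the untreated lines 5 genes were called, where 45.8% of genes were called, 21.6% higher and 24.2% lower, and 9 passed the FDR alone, as did 79.1% of all genes. MYC (1.96), MXD1 (1.59), TXNIP (1.11) and ARRDC4 (2.24) were higher in HT-29, and MLXIPL (-4.15) was lower.

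**Figure D3:**
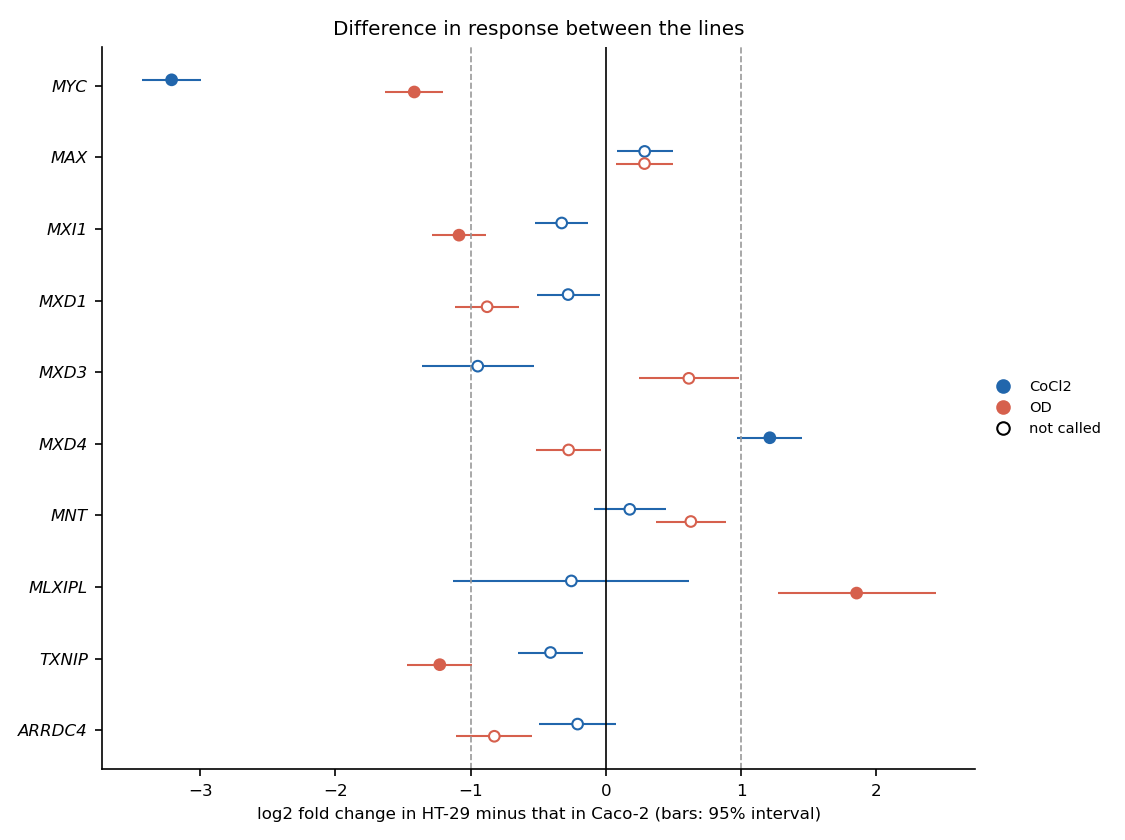
Difference in response between the lines on the x axis, as the log2 fold change in HT-29 less that in Caco-2, with 95% intervals as bars, for CoCl2 and OD, where filled points were called and open points were not. MYC lies at -3.21 with CoCl2 and -1.42 with OD, while MAX lies at 0.29 with both, and MNT with CoCl2 changes sign by library size alone.

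Ratios of RPKM within a library do not depend on the scaling between libraries. MXI1 over MYC averaged 0.633 ± 0.036 in Caco-2 control, 0.946 ± 0.074 with CoCl2 and 1.42 ± 0.059 with OD (SD, n = 3). In HT-29 it averaged 0.219 ± 0.015, 2.42 ± 0.14 and 0.620 ± 0.028 in the same order. No groups overlapped within a line, and the highest value was with OD in Caco-2 and with CoCl2 in HT-29. The 5 repressors summed over MYC gave 2.15 ± 0.23, 2.11 ± 0.14 and 3.13 ± 0.17 in Caco-2, where CoCl2 overlapped control. In HT-29 that sum over MYC gave 0.904 ± 0.048, 9.0 ± 0.43 and 2.46 ± 0.15, with all groups separate. MAX over MYC was 0.766 ± 0.054 in Caco-2 control, 0.570 ± 0.035 with CoCl2 and 0.922 ± 0.10 with OD, with no overlap between groups. For HT-29 it was 0.121 ± 0.0025 in control, 1.02 ± 0.065 with CoCl2 and 0.476 ± 0.023 with OD, so the CoCl2 libraries were lowest in one line and highest in the other. These ratios compare transcript levels and say nothing of protein.

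TXNIP and ARRDC4, which share their known activators, did not keep a fixed ratio. TXNIP over ARRDC4 was 31.6 ± 1.2 in Caco-2 control, 24.0 ± 1.4 with CoCl2 and 42.8 ± 5.2 with OD. The HT-29 values were 14.5 ± 0.21, 9.57 ± 0.46 and 14.7 ± 0.63, where OD overlapped control and CoCl2 lay below both. The CoCl2 libraries had the lowest ratio in each line.

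**Figure D4:**
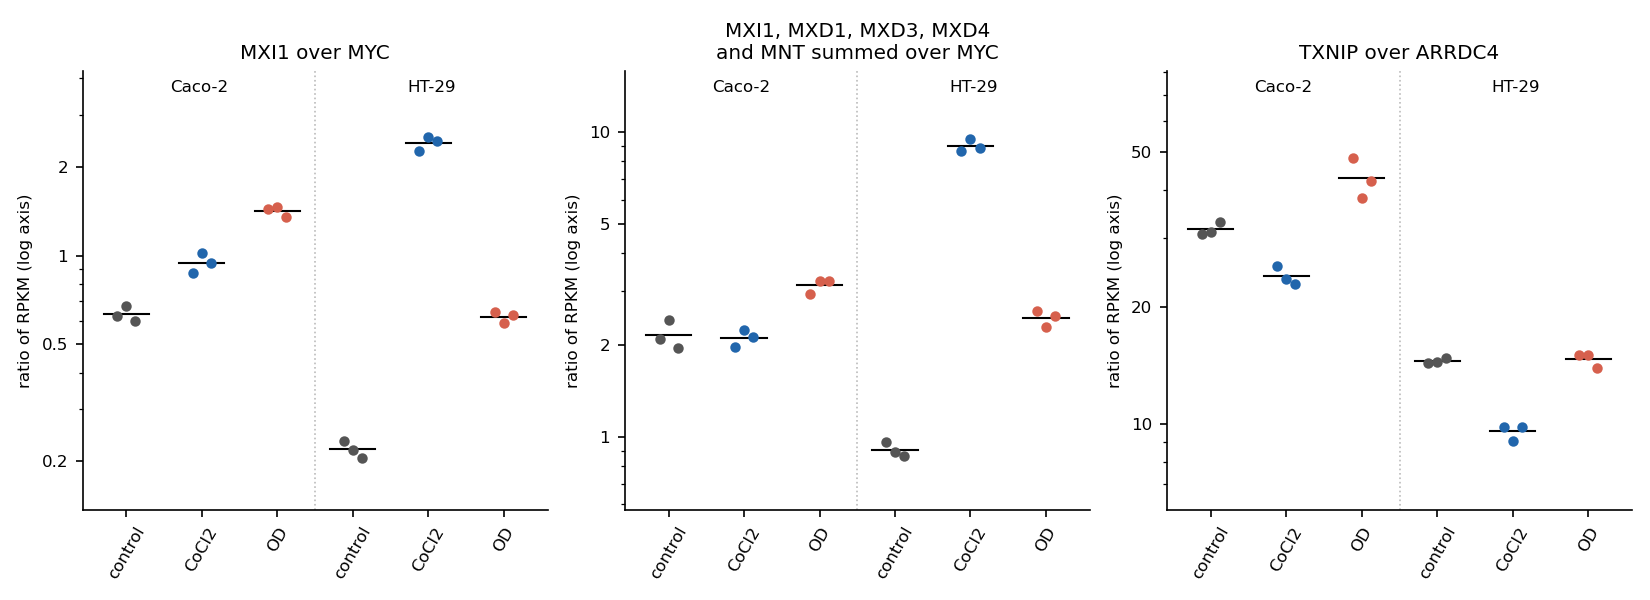
Ratios of RPKM within each library on log axes, for MXI1 over MYC, the 5 MAX-paired repressors summed over MYC, and TXNIP over ARRDC4, with a point per library and a bar at the mean of 3. The summed repressors over MYC rise from 0.904 to 9.0 between control and CoCl2 in HT-29 and lie at 2.15 and 2.11 in the same groups of Caco-2.

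The genes that MYC is known to activate were taken as a list of 28. In HT-29 26 of them were tested, and with CoCl2 8 were called lower and none higher, where 23.9% and 17.4% of all genes were, with a list median of -0.65 beside -0.03 over all genes. Those with the lowest values were CAD (-2.60), the first enzyme of pyrimidine synthesis, POLR1B (-1.93), a subunit of RNA polymerase I, and RRS1 (-1.78), a ribosome assembly factor. With OD 5 were called lower and none higher, where 7.57% and 9.50% of all genes were, with a list median of -0.62 beside 0.01 over all genes. ODC1 (-1.47), which starts polyamine synthesis, NOP58 (-1.17), a core protein of small nucleolar RNA particles, and DKC1 (-1.07), the pseudouridine synthase, were lowest. At the FDR alone, by edgeR's test, 19 were lower and 6 higher with CoCl2, and 22 lower and none higher with OD, where 82.8% and 68.8% of all genes passed in either direction. By library size alone the CoCl2 count of called genes was 15 lower.

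In Caco-2 all 28 were tested. With CoCl2 FBL (1.31), the nucleolar methyltransferase, was called higher and CAD (-1.23) and BOP1 (-1.10) lower, where 9.13% of all genes were called higher and 14.2% lower, with a list median of -0.01 beside -0.03 over all genes. By library size alone 6 were called lower and none higher, and without replicate 2 and by limma-trend 1 was called lower. With OD FBL (1.15) and TERT (1.52, from 5 to 22 counts per library) were called higher and RRS1 (-1.16) lower, where 4.43% and 7.27% of all genes were, with a list median of -0.16 beside -0.02. The 2 called higher became 1 without replicate 2, by library size alone and by limma-trend, and the 1 called lower became 2 by library size alone and 0 by limma-trend. In the test of the line difference with CoCl2, 14 of 28 were called lower in HT-29 and SHMT2 (1.17), which was not called by library size alone, higher, where 13.8% and 7.79% of all genes were called lower and higher, with a list median of -0.98 beside -0.13. ODC1 (-1.70) had the lowest line difference of the list. With OD 5 of 28 were called lower, where 6.24% of all genes were, with a list median of -0.40 beside 0.01, and 3 were called lower without replicate 1, by library size alone and by DESeq2.

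**Figure D5:**
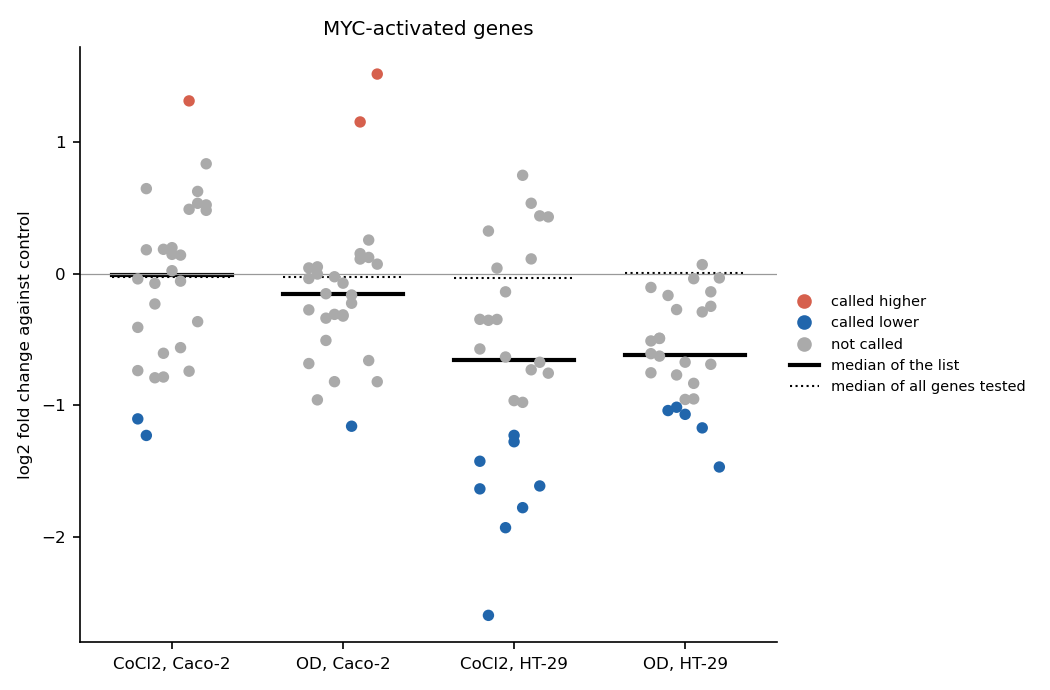
Log2 fold change against control of the MYC-activated genes on the y axis, with a point per gene tested, coloured by call, for both agents in both lines, with the list median as a solid line and the median of all genes as a dotted line. The list medians lie at -0.65 and -0.62 in HT-29 and at -0.01 and -0.16 in Caco-2.

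Of 8 genes that MYC is known to repress, CoCl2 gave 3 called higher and 1 lower in each line. The shares of all genes called higher and lower were 9.13% and 14.2% for Caco-2, while for HT-29 they were 17.4% and 23.9%. The Caco-2 count called lower was 2 without replicate 1 and by library size alone. CDKN1A, the p21 inhibitor of cell division, had Caco-2 values of 1.26 (CoCl2, called) and 0.93 (OD, not called) and rose in HT-29 by 1.85 and 1.73. NDRG1, a stress gene that is also a HIF target, rose in all 4 comparisons, by 2.87, 2.46, 5.97 and 2.82 in the same order. GADD45A, a DNA damage response gene, rose by 2.61, 1.51 and 1.23 and stood at -0.65 with OD in HT-29, short of the fold limit. CEBPA was called lower with CoCl2 in Caco-2 (-1.11) and NDRG2 in HT-29 (-2.30). With OD 2 of 8 were called higher in Caco-2 and 3 in HT-29, where CDKN2B (1.14) was the other, beside 4.43% and 9.50% of all genes. None were called lower, beside 7.27% and 7.57%, although 1 was in Caco-2 without replicate 3 and by library size alone. The list medians with CoCl2 were 0.57 in Caco-2 and 0.29 in HT-29, beside -0.03 over all genes in each. By library size alone they were 0.25 and -0.34. With OD the list medians were 0.02 and -0.005, beside -0.02 and 0.01 over all genes.

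The list of 17 targets of ChREBP and MondoA holds genes of sugar and fat metabolism. In Caco-2 15 were tested, and with CoCl2 4 were called lower and none higher, where 14.2% and 9.13% of all genes were, with a list median of -0.51 beside -0.03 over all genes. By limma-trend 2 were called lower, and without replicate 1 or replicate 3 1 was called higher. GPD1 (-2.51), PKLR (-1.55) and KHK (-1.44), enzymes of glycerol phosphate, pyruvate and fructose metabolism, were lowest. With OD only GPD1 (-1.30) was called, where 7.27% of all genes were called lower, and 2 were without replicate 3 and by library size alone. In HT-29 12 were tested, with 2 called higher and 6 lower with CoCl2, where 17.4% and 23.9% of all genes were, and a list median of -1.18 beside -0.03 over all genes. OD gave 3 called each way, where 9.50% of all genes were called higher and 7.57% lower. By limma-trend 3 were called lower with CoCl2 and 1 with OD, and without replicate 3 the OD count called lower was also 1. FASN and SCD, fatty acid enzymes that other regulators of lipid synthesis also drive, rose by 2.08 and 2.05 with CoCl2 and by 1.68 and 1.42 with OD. Lowest with CoCl2 were KHK (-2.37), RGS16 (-2.26), a brake on G protein signalling, and FGF21. GPD1 was called higher with OD in HT-29, at 1.37. FGF21, a metabolic hormone, held 16 to 72 counts in HT-29 control, 0 to 3 with CoCl2 and 17 to 19 with OD.

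Other proteins of the network were taken from short lists. MYCL, a relative of MYC, fell in Caco-2 by 1.15 (CoCl2) and 1.09 (OD) on the log2 scale and in HT-29 by 2.67 with CoCl2, and its OD value in HT-29 was -0.11. The OD call in Caco-2 was lost without replicate 2 and by limma-trend. MYCN was called lower with CoCl2 in Caco-2 (-1.58) and was not tested in HT-29. MGA, MLX and MLXIP were not called with either agent in either line, with values from -0.39 to 0.51. None of the 4 SIN3 corepressor genes, SIN3A, SIN3B, HDAC1 and HDAC2, was called, with values from -0.41 to 0.82, in comparisons where 11.7% to 41.3% of all genes were. At the FDR alone, by edgeR's test, 4 were higher with CoCl2 in Caco-2, where 64.7% of all genes passed in either direction, and 3 were higher and HDAC2 (-0.30) lower in HT-29, where 82.8% passed. The list medians with CoCl2, 0.23 and 0.50, turned to -0.088 and -0.13 by library size alone.

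Among 8 genes of MYC protein turnover, CoCl2 in HT-29 gave 3 called higher and 3 lower, where 17.4% and 23.9% of all genes were. HUWE1 (1.33), FBXW7 (1.13) and GSK3B (1.07), a pair of ubiquitin ligase components and the kinase that primes MYC for FBXW7, were higher, but none was called by library size alone and 1 by limma-trend. CIP2A (-2.05), SKP2 (-1.53) and AURKA (-1.50) were lower, of which CIP2A and AURKA are known to stabilise MYC protein. In Caco-2 only SKP2 (-1.21) was called with CoCl2, where 9.13% of all genes were called higher and 14.2% lower. None of the 8 was called with OD in Caco-2, where 4.43% of all genes were called higher and 7.27% lower. With OD in HT-29 AURKA (-1.29) was called lower, where 7.57% of all genes were, and 2 were called lower without replicate 3.

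The thioredoxin system, to which TXNIP binds, was followed in 4 genes. TXNRD1, the cytosolic thioredoxin reductase, rose by 2.43 with CoCl2 in Caco-2 and in HT-29 by 3.67 (CoCl2) and 1.94 (OD), and its OD value in Caco-2 was 0.84. TXN, the thioredoxin itself, rose by 1.84 and 1.19 in HT-29 and stood at 0.54 and -0.04 in Caco-2. The mitochondrial TXN2 and TXNRD2 were not called, with values from -0.51 to -0.04. Of the other alpha-arrestins, ARRDC3, a regulator of receptor trafficking, rose with CoCl2, by 1.65 in Caco-2 and by 2.28 in HT-29. Its OD values were -0.31 and 0.24. ARRDC1 and ARRDC2 were not called, and ARRDC5 was not tested.

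For the genes in the title of the network, the most similar patterns were sought among 10435 genes by the Pearson correlation of log2 CPM centred within each line. It ran over 18 libraries that share lines, treatments and controls, so the values describe these libraries only. Closest to MYC were HES1 (0.988), a repressor downstream of Notch, PLK2 (0.985), a stress-induced kinase, and SNHG1 (0.974), a host gene of small nucleolar RNAs. PLK2 changed by 1.63 with CoCl2 in Caco-2 and by -2.23 in HT-29. Most opposite were PRDM1 (-0.960), ACSL1 (-0.959) and HERC2P2 (-0.954). Closest to MXI1 were ENO1 (0.993), a glycolytic enzyme and HIF target, TSC22D2 (0.992) and ANKLE2 (0.990), and most opposite were NYNRIN (-0.986), CRYBG1 (-0.984) and WNK2 (-0.982). ENO1 had log2 values of 2.41 and 1.90 for CoCl2 and OD in Caco-2 and of 2.46 and 0.60 in HT-29. Closest to TXNIP were CLSPN (0.951), a replication checkpoint protein, HMOX2 (0.935) and HEPH (0.926), and most opposite were the histone genes H1-2 (-0.899), H2AC6 (-0.884) and H4C9 (-0.872).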

How the data were processed

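The 18 mRNA libraries were grouped by line and treatment from their labels, and 0 columns were left without a sample. The values tested are raw gene-level read counts, as the authors deposited them. Beside them the authors deposited log2 values, which recomputation from the counts showed to be log2 of RPKM plus 1, scaled by TMM within each line, with filtered genes at 0. Per the submitters' processing notes and the study's methods, reads were trimmed with cutadapt 2.10 and aligned with STAR 2.7.5b to GRCh38, and genes were counted on GENCODE release 34. The counting tool and its use of strand are not given in the sources used here. The miRNA tables were not used here.

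The test was edgeR's quasi-likelihood F test (edgeR 4.0.16, R 4.3.3), with 9 libraries in the fit of each line, TMM and filterByExpr, two-sided, with Benjamini-Hochberg adjustment over all genes tested. Differences between the lines were fitted over all 18 libraries, as an interaction. The procedure was tested on simulated data. CPM used the TMM scaling of the line's fit, and levels between genes are RPKM from the log2 table. Coordinates are those of GENCODE v44. No protein sequences were compared.

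The members, lists, tests and thresholds were chosen with earlier results of these data known, the thresholds being those of the study. All 10 members are named throughout. From each list the text gives counts and names at most the 3 highest and 3 lowest called genes per comparison, or the whole list where it has 8 or fewer, and for MYC, MXI1 and TXNIP the 3 most alike and 3 most opposite genes with a mean of at least 100 counts. Alternatives were library size alone, no filter on low counts, DESeq2 1.42.0, limma-trend 3.58.1 on the log2 table, a replicate block, each replicate number left out, and no fold limit. Replicates of a group differed by more than counting error, so none was a repeat deposit.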

Additional observations from a re-analysis of the deposited data

Results flagged for a closer look

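Differences in response between the lines passed the interaction test and the fold limit for 5 genes, given as the HT-29 log2 change less the Caco-2 log2 change. With CoCl2 they were -3.21 for MYC and 1.21 for MXD4. With OD they were -1.42 for MYC, -1.09 for MXI1, -1.23 for TXNIP and 1.85 for MLXIPL, the last from 17 to 85 counts per HT-29 library in control and OD. Culture state differs between the lines as well and cannot be told apart from the line.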

How the results depend on the processing

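Of 687 alternative values for the 90 fold changes of the members, 655 kept direction and call, and DESeq2 and the replicate block each kept all 90. Same-numbered libraries did not deviate together (correlations of -0.055 to 0.068 for Caco-2, -0.037 to 0.025 for HT-29), so the block only shares a number. It left MYC at 1.23 with CoCl2 in Caco-2. By library size alone these fold changes turned sign: MNT (in Caco-2 -0.18 for CoCl2, -0.055 for OD and -0.12 for CoCl2 against OD, in HT-29 -0.21 for CoCl2, and -0.027 for the line difference with CoCl2), ARRDC4 (with CoCl2, -0.085 for Caco-2 and -0.50 for HT-29), MXD4 (-0.089 with OD in Caco-2), and, for CoCl2 against OD in HT-29, MAX (-0.14) and TXNIP (-0.49). TXNIP in that comparison also turned without a filter (-0.042) and by limma-trend (-0.057). For CoCl2 against OD in Caco-2, MXD3 ran from -0.46 without replicate 1 to 0.052 without replicate 3, and MNT from -0.029 without replicate 1 to 0.11 without replicate 3. Not called by library size alone were MYC with CoCl2 in Caco-2 (0.91), MAX (0.57), MXI1 (0.96) and MXD4 (0.52) with CoCl2 in HT-29, and MXI1 (0.72) and MXD4 (0.84) for CoCl2 against OD there, and the cause was not tested. With no fold limit the counts of members called were 7 (OD, Caco-2), 6 (CoCl2 against OD, Caco-2), 10 (OD, HT-29), 9 (CoCl2 against OD, HT-29), 7 and 9 (line differences with CoCl2 and OD) and 9 (untreated lines). Library size alone gave 1 for CoCl2 against OD in Caco-2, and limma-trend gave, for HT-29, 3 (CoCl2) and 1 (OD). MLXIPL, at 0 in the authors' log2 values for HT-29, was not tested by limma-trend there. Limma-trend called 1098, 381 and 341 of all genes in Caco-2 (CoCl2, OD, CoCl2 against OD), against 3747, 1876 and 1868. In HT-29 it called 2520, 744 and 1455, against 6524, 2699 and 4734. It tested 13153 genes in Caco-2 and 12431 in HT-29, against 16034 and 15812, on values with a pseudocount. What lowered its counts was not tested. By library size alone CoCl2 gave 870 higher and 3546 lower genes for Caco-2, and for HT-29 1295 and 6250, against 1464 and 2283, and 2749 and 3775. The list counts were run under the same alternatives after the data were seen. Depth limits MLXIPL in HT-29 most, with 7 to 85 counts per library.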

Other observations

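A list of 6 genes that read out HIF was followed in the same libraries. With CoCl2 all 5 tested genes were called higher in Caco-2 and 5 of 6 in HT-29, where 9.13% and 17.4% of all genes were. With OD 3 of 5 and 3 of 6 were called higher, where 4.43% and 9.50% of all genes were, and the HT-29 count fell to 2 without replicate 1, by library size alone, by DESeq2 and with a replicate block, and to 1 by limma-trend. Called with OD were VEGFA, BNIP3 and PDK1 in Caco-2 and ADM (1.34), CA9 (1.28) and BNIP3 (1.01) in HT-29. ADM rose with CoCl2 by 3.47 (Caco-2) and 5.42 (HT-29), EGLN3 by 2.89 and 3.99, CA9 by 2.51 in HT-29, and BNIP3 by 3.58 in Caco-2, while BNIP3 stood at 0.51 in HT-29, short of the fold limit. PDK1, a kinase that inhibits pyruvate dehydrogenase, rose in Caco-2 by 3.34 (CoCl2) and 2.76 (OD) and in HT-29 by 2.93 with CoCl2, while its OD value there was -0.06. The line difference of PDK1 in the OD response was -2.83. VEGFA, the vascular growth factor, had Caco-2 values of 1.39 and 1.21 and HT-29 values of 1.86 and 0.80, the last of which was not called.

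The balance of repressors also shifted within libraries. MXD1 over MXD4, as a ratio of RPKM, was 0.634 ± 0.057 in Caco-2 control, 3.20 ± 0.72 with CoCl2 and 1.47 ± 0.028 with OD (SD, n = 3). In HT-29 it was 1.36 ± 0.20, 2.43 ± 0.20 and 2.07 ± 0.18, where both treated groups lay above control.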
